A study of Rattus norvegicus with 2 samples.

Results

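Heat shock proteins and chaperonins fold newly made proteins, hold damaged ones and pass them on for refolding or disposal. HSP70 proteins bind short unfolded stretches in a cycle driven by ATP, J-domain proteins (DNAJ) bring clients to HSP70 and start its ATP hydrolysis, and HSP110 proteins exchange its nucleotide. HSP90 proteins act late, on kinases and steroid receptors, small heat shock proteins hold clients without ATP, and the ring-shaped chaperonins HSP60 and CCT (also called TRiC) enclose clients in a chamber. Several of these genes are induced by heat shock factor 1 (HSF1) through heat shock elements, inverted repeats of nGAAn in their promoters.

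The genes were chosen by name from the array's gene probes, as transcripts of rat genes of the Hspa, Hspb, Hspd, Hspe, Hsph, Hsp90, Dnaja, Dnajb and Dnajc families, the subunits Cct2 to Cct8 and Tcp1, Cryab and Bag3. The endoplasmic reticulum genes Hspa5, Hsp90b1, Dnajb9 and Dnajc3 were left out. This gave 73 genes, on 91 probes, of the 15159 genes that could be named on the array. The series compared 2 samples of RMT-1 cells, clone E4 of a rat mammary tumour line, grown in RPMI-1640 with fetal bovine serum. One sample was transfected with an siRNA against Pla2g4c, a cytosolic phospholipase A2, and the other with a negative control siRNA, so that both had been given an siRNA. The line is 1 clone, and the time after transfection and the siRNA sequences are not given in the sources used here. Total RNA was labelled with Cy3 and hybridised to 1 one-colour Agilent array per group, so no difference could be tested against replicates.

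A level below is log2 of the array's processed signal relative to that array's 75th percentile (signal 852 on the control array, 1105 on the Pla2g4c siRNA array). A difference is the level on the Pla2g4c siRNA array minus the level on the control array, and the ± beside it carries the error that the scanner software estimated for each array, which covers technical error only. A gene was measured where all spots of a probe were well above background on both arrays. That held for 57 of the 73 genes and for 9026 of all named genes, over which the median difference was -0.01. No probe could be named as Pla2g4c, so the knockdown itself was not checked. The basal epithelial keratins Krt5, Krt14 and Krt17 were measured on both arrays, and of the luminal markers Krt8, Krt19 and Epcam were measured and Krt18 was at background. Markers of other cells were measured in part: Cd68 of 4 for leukocytes, Cdh5 of 2 for endothelium, Des and Acta1 of 4 for striated muscle, and Col1a1 and Col1a2 of 4 for fibroblasts. Ptprc, Cd3e, Adgre1, Pecam1, Ckm, Myh4 and Pdgfrb were at background in both samples. In the authors' deposited normalized values the median over all named genes was 0.12, and after scaling to the 7 detected spike-in RNAs it was 0.54. Spike-in scaling added 0.55 to every difference, so a gene between -0.55 and 0 lay above 0 under it, and each direction below is relative to most other genes.

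As background for the results, 5 promoters are shown, those of Hsph1 and Hspa8, which hold the longer heat shock element and lay on opposite sides of 0, of Hspe1, whose element it shares with Hspd1, and of Hspb8 and Bag3, which encode partner proteins. They are RefSeq sequences of build GRCr8, 5′ to 3′, for 250 bases before the gene start or, for Hspe1 and Hspb8, whose window overlaps annotated transcripts, for 30 bases around the element. Capitals mark GAANNTTC or TTCNNGAA, each of which reads the same on both strands and can overlap the other.
Hsph1, chr12:10427118-10427367, plus strand: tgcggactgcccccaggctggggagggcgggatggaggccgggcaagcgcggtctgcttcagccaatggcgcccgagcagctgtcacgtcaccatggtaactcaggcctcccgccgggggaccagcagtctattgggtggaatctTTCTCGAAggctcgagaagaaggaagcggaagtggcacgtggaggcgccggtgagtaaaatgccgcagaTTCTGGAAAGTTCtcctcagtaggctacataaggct
Hspa8, chr8:50080264-50080513, plus strand: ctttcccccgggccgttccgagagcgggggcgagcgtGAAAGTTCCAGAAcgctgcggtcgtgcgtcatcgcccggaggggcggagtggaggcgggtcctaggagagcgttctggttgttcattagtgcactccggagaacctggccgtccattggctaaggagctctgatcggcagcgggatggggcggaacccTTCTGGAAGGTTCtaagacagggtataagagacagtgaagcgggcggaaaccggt
Hspe1, chr9:64084256-64084285, plus strand: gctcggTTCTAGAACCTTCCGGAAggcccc
Hspb8, chr12:45837274-45837303, plus strand: agaagccaggaGAAGTTTCtaggcgcgtga
Bag3, chr1:192533210-192533459, plus strand: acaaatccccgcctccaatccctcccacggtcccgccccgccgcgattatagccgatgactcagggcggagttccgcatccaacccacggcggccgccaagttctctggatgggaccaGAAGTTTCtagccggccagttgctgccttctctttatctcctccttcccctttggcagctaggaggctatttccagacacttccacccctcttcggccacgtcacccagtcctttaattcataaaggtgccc

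A promoter was listed for 59 of the 73 genes. Within 250 bases before the start, GAANNTTC or TTCNNGAA was found in 18 of them (30.5%) and in 13.5% of all 33469 RefSeq promoters of that length. The longer form, in which both motifs run into each other on a shared GAA or TTC, was found in 4, those of Hsph1, Hspa8, Hspd1 and Hspe1 (6.78%), and in 0.663% of all promoters. The Hspe1 element printed above lies on the other strand within the Hspd1 window, so these genes share 1 element. The 13 measured genes with either short form had a median difference of -0.06, with 5 above 0 and 8 below, and the 33 measured genes with neither had a median of -0.02, with 15 above 0 and 18 below. No promoter was listed for Cryab, Hspb2 or Hsp90aa1. A match is a description of letters and shows no binding.

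The comparison asked how the levels of these chaperones differed with Pla2g4c knocked down. Most were within 1.5-fold, and each family except CCT had genes on both sides of 0. Of the 57 measured genes, Cryab was at least 2-fold lower and 0 were at least 2-fold higher, which is 1.75% of them against 5.96% of all 9026 named genes (2.91% higher, 3.05% lower). Past 1.5-fold there were 5 higher, Dnajc22, Hsph1, Hspb8, Hspa9 and Dnajc28, and 4 lower, Cryab, Hspb9, Hspa4 and Dnajc2, which is 15.8% against 19.0% of all named genes (8.69% higher, 10.3% lower). The median difference over the 57 genes was -0.03, beside -0.01 over all named genes, and 25 of them (43.9%) differed by more than the software's error, against 57.1% of all.

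**Figure D1:**
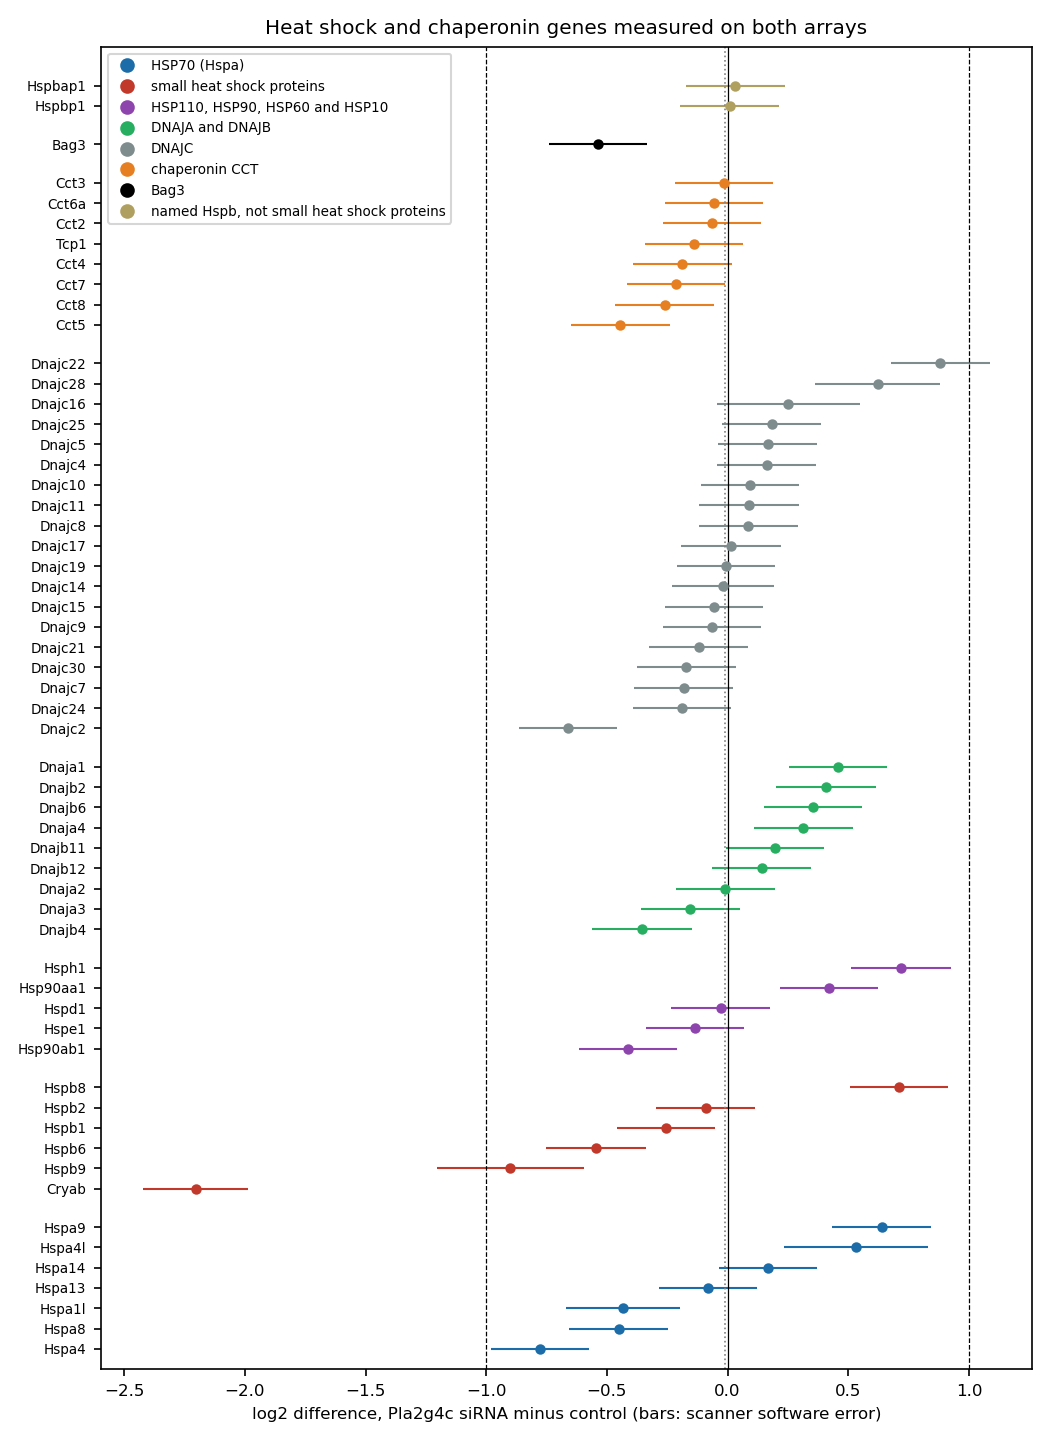
Log2 difference (x axis, Pla2g4c siRNA array minus control array) of each of the 57 measured genes, grouped and coloured by family. Points are gene values, bars the scanner software's error, dashed lines 2-fold, and the dotted line the median of all named genes; the point of Cryab alone lies past a dashed line, at -2.20.

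The small heat shock proteins held both the lowest measured gene and 1 of the highest measured. Of 8 on the array 6 were measured, 5 of them below 0 and Hspb8 above, where 51.0% of all named genes were below 0. The family had a median of -0.40. This median lay below that of all named genes under the main processing and all 10 alternatives. The gap was 0.39 in the main values and between 0.15 and 0.39 across the settings, although the median itself was 0.15 after spike-in scaling. Median scaling, spike-in scaling and the deposited values shift all genes alike, so they could not change this gap. Each measured member has 1 probe, so taking the brightest probe could not change the family median. Without Cryab the family median was -0.26.

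Cryab encodes alpha-B-crystallin, a holdase of lens, muscle and basal or myoepithelial cells. Its spots read -2.04 and -2.09 in the control and -4.21 and -4.33 with the Pla2g4c siRNA, so that the arrays did not overlap. The difference was -2.20 ± 0.22, which is 4.61-fold lower. It was at least 2-fold lower under each of the 9 alternatives that measured it, from -2.21 to -1.52, the last under normexp background correction. The basal keratins were also lower with the Pla2g4c siRNA, Krt5 by a difference of -1.72 ± 0.20, Krt17 by -1.63 ± 0.20 and Krt14 by -0.97 ± 0.20. Summed over these 3 keratins, the signal was 704 times the array's 75th percentile in the control and 289 times in the other sample, and no probe was named as Trp63. Of the luminal markers, Epcam differed by 1.03 ± 0.20 and Krt8, which was dim, by 0.86 ± 0.27, while Krt19 differed by -0.30 ± 0.21, and Krt18 was at background. Whether a shift in basal character or in cell makeup had a part in the Cryab difference was not tested, and fewer cells of a type and less RNA per cell cannot be told apart in bulk RNA. Of the striated muscle markers, Des differed by 0.85 ± 0.27, from -5.04 to -4.19, and Acta1 by -0.02 ± 0.31, while Ckm and Myh4 stayed at background in both samples.

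Hspb2, a small heat shock protein of muscle, overlaps Cryab in the RefSeq annotation of GRCr8. Its spots read -0.31 and -0.12 in the control and -0.35 and -0.26 with the Pla2g4c siRNA, with overlap, and its difference was -0.09 ± 0.20. The neighbouring genes thus differed by unequal amounts. Hspb9, a testis-enriched member, read -4.58 and -4.66 in the control and -5.64 and -5.40 with the Pla2g4c siRNA, a difference of -0.90 ± 0.31 that was -0.48 under normexp. Hspb6, expressed in smooth and striated muscle, read -2.12 and -2.26 against -2.69 and -2.77 and differed by -0.54 ± 0.21. Hspb1 (HSP27), the widely expressed and stress-induced member, rested on 1 spot, 3.19 against 2.93, and differed by -0.26 ± 0.20. Hspb3 and Hspb7 were not above background on either array.

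Hspb8 (HSP22) binds the cochaperone Bag3, and this pair, with HSP70, hands misfolded clients to autophagy. Both spots of Hspb8 read -1.44 in the control, and they read -0.70 and -0.76 with the Pla2g4c siRNA. The difference was 0.71 ± 0.20, or 1.64-fold higher, and it stayed above 0 under all 9 alternatives that measured it, from 0.60 to 1.26. Bag3 lay below 0. Its 10 spots ran from 2.22 to 2.39 with a mean of 2.29 in the control and from 1.58 to 1.84 with a mean of 1.75 with the Pla2g4c siRNA. The arrays did not overlap, and the difference was -0.54 ± 0.20, which became 0.01 after spike-in scaling. Hspbp1, a nucleotide exchange factor for HSP70, and Hspbap1, which binds HSP27, carry the Hspb prefix without being small heat shock proteins, and their differences were 0.01 ± 0.20 and 0.03 ± 0.20.

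**Figure D2:**
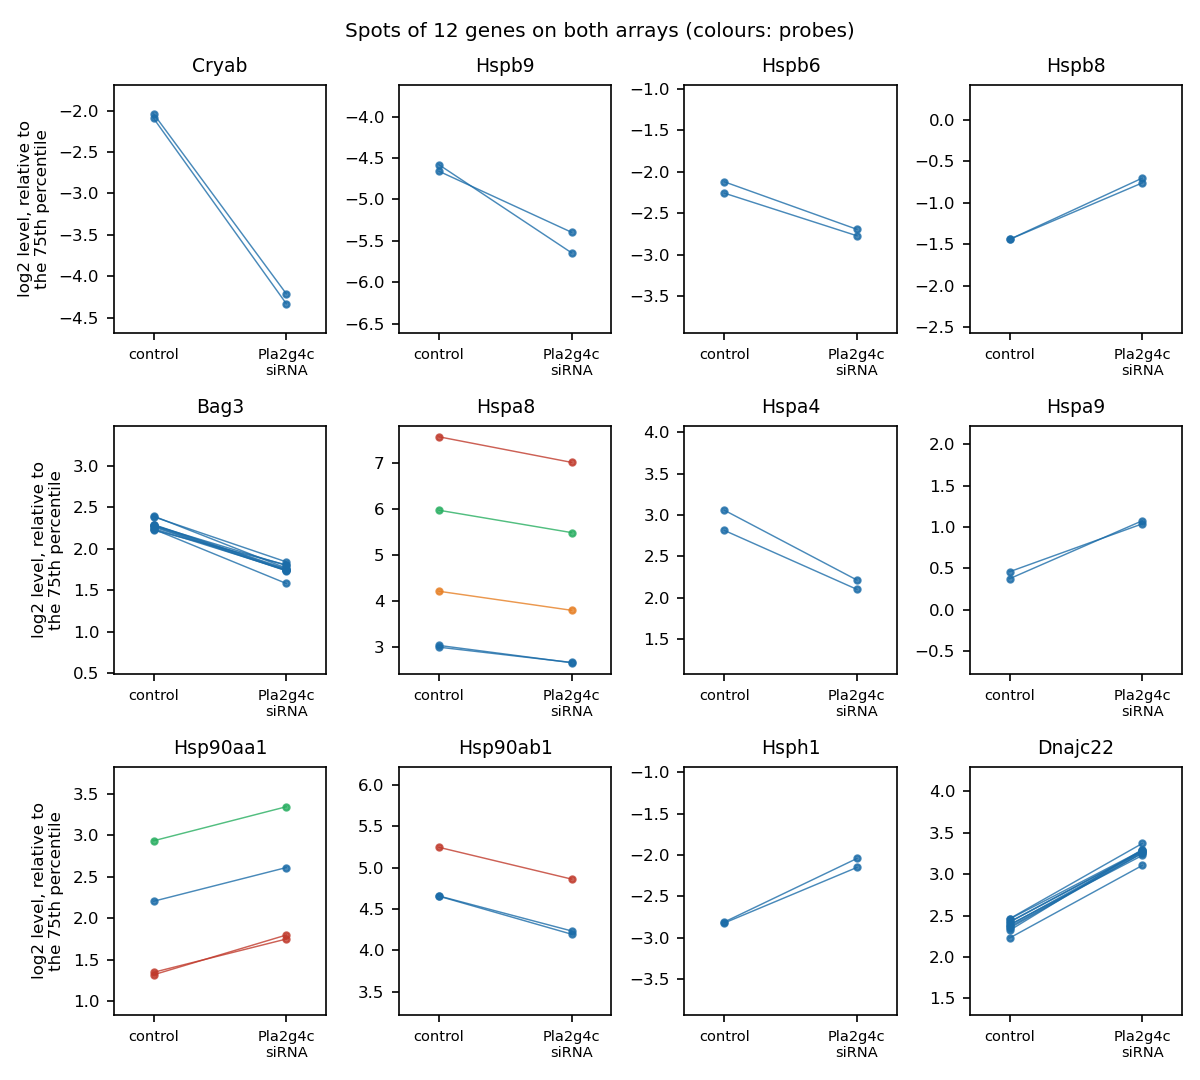
Log2 level of every spot used (y axis, relative to the array's 75th percentile) on the control and the Pla2g4c siRNA array for 12 genes, with a line joining the same array position and a colour for each probe. Axes differ between panels. For each of these 12 picked genes no spot of a probe on one array reaches into the range of that probe on the other. Spots also did not overlap in 75.9% of all named genes that have a measured probe with several spots. Some probes of Hspa8, Hsp90aa1 and Hsp90ab1 have 1 spot and so no range. Spots are repeats on 1 array.

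Within the HSP70 family the abundant cytosolic form and the mitochondrial form lay on opposite sides of 0. Of 9 genes on the array 7 were measured, 3 above 0 and 4 below, where 51.0% of all named genes were below 0. The family had a median of -0.08. Hspa8 (HSC70), the constitutive cytosolic HSP70, was measured by 4 probes. They read 7.57, 5.98, 4.22 and 3.03 in the control and 7.01, 5.49, 3.81 and 2.67 with the Pla2g4c siRNA. All 4 were lower, by differences from -0.55 to -0.35, and the gene's difference was -0.45 ± 0.20. Hspa8 is among the brightest genes, and over the 903 brightest named genes the median difference was -0.14. Normalizations that remove such a trend gave -0.10 (quantile) and -0.13 (cyclic loess), and spike-in scaling gave 0.10. RefSeq lists 33 pseudogenes of Hspa8, whose transcripts could share its probes.

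Hspa9 (mortalin), the mitochondrial HSP70 that pulls proteins through the inner membrane, read 0.46 and 0.38 in the control and 1.04 and 1.08 with the Pla2g4c siRNA. The difference was 0.64 ± 0.20, or 1.56-fold higher, and it lay between 0.63 and 1.19 under the 10 alternatives. Hspa4, an HSP110-type nucleotide exchange factor despite its symbol, read 3.06 and 2.82 in the control and 2.22 and 2.10 in the other sample. It differed by -0.78 ± 0.20, or 1.71-fold lower, and it was below 0 under all 10 alternatives, up to -0.23 after spike-in scaling. Its relative Hspa4l differed by 0.53 ± 0.30, and was -0.07 under normexp.

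Among the remaining HSP70 genes, Hspa14, which works at the ribosome, differed by 0.17 ± 0.20, and Hspa13, a microsomal form, by -0.08 ± 0.20. Hspa1l, a testis form that overlaps Hspa1a in the RefSeq annotation, was read by 9 spots that ran from -4.43 to -3.89 in the control and from -4.73 to -4.33 in the other sample. These ranges overlapped, and the difference was -0.43 ± 0.24, or -0.69 with its outlier spot kept. Hspa2, another testis-enriched form, passed background in the Pla2g4c siRNA sample alone, at -4.97 against -6.08. For such a gene the dim side was set to its own level or, where higher, to the lowest level that counted as well above background there. That lowest level was -6.24 in the control, so the own level of Hspa2 was used. Its 2.15-fold is therefore the difference of 1.11 ± 0.37 and not a lower bound. Hspa12a was not above background on either array. The stress-induced Hspa1a and Hspa1b, and their J-domain partner Dnajb1, matched no probe through the names used here and were not analysed here.

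The cytosolic HSP90 paralogs differed in opposite directions in the main values. Hsp90aa1 encodes the stress-inducible HSP90 alpha and Hsp90ab1 the constitutive HSP90 beta. The 3 probes of Hsp90aa1 read 2.94, 2.21 and 1.33 in the control and 3.35, 2.61 and 1.77 with the Pla2g4c siRNA, and the gene differed by 0.42 ± 0.20. The probes of Hsp90ab1 read 5.24 and 4.66 in the control and 4.86 and 4.22 in the other sample, and the gene differed by -0.41 ± 0.20. Every probe of Hsp90aa1 was higher, by 0.41 to 0.44, and every probe of Hsp90ab1 lower, by differences from -0.44 to -0.38. The alpha difference exceeded the beta difference by 0.83 in the main values and by 0.67 with cyclic loess. The gap was 0.58 under quantile normalization, the lowest of the 10 alternatives. Hsp90ab1 by itself was below 0 in 10 of 11 settings and was 0.14 after spike-in scaling. Like Hspa8, it is among the 903 brightest named genes, over which the median difference was -0.14. RefSeq lists 16 pseudogenes of Hsp90aa1 and 23 of Hsp90ab1.

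Hsph1 (HSP105), the stress-induced HSP110, was the highest of this group. Its spots read -2.81 and -2.82 in the control and -2.04 and -2.15 with the Pla2g4c siRNA, without overlap. The difference was 0.72 ± 0.21, or 1.65-fold higher, and it lay between 0.50 (normexp) and 1.27 (spike-in scaling) under the 9 alternatives that measured it. Hsph1 and Hspa4, both of the HSP110 class, therefore differed in opposite directions. Hspa4l, the relative of Hspa4, lay on the side of Hsph1 in the main values, at 0.53 ± 0.30, and was -0.07 under normexp. The mitochondrial chaperonin pair lay near 0 in the main values. Hspd1 (HSP60), the chamber, differed by -0.03 ± 0.20, and Hspe1 (HSP10), its lid, by -0.14 ± 0.20 over 2 probes. In the main values these neighbours, which overlap in the annotation and share the element printed above, did not differ from each other beyond the software's error. Across the 11 settings Hspd1 lay between -0.03 and 0.52 and Hspe1 between -0.17 and 0.41. The median of this group of 5 genes was -0.03 in the main values, 0.32 with quantile normalization and 0.28 with cyclic loess.

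Among J-domain proteins, 9 of the 14 DNAJA and DNAJB genes on the array were measured, 6 above 0 and 3 below, where 49.0% of all named genes were above 0. Of the 9, 5 (55.6%, against 57.1% of all named genes) differed by more than the software's error. Dnaja1, Dnaja4, Dnajb2 and Dnajb6 were higher and Dnajb4 lower. The class had a median of 0.20 that lay above the median of all named genes under the main processing and all 10 alternatives, by 0.16 to 0.26. Of these, median scaling, spike-in scaling and the deposited values shift all genes alike and could not change that gap. No measured gene of the class reached 1.5-fold. Dnaja1, a farnesylated cochaperone of HSC70, read 2.53 in the control and 2.99 with the Pla2g4c siRNA. Its difference, 0.46 ± 0.20, was the highest of the 9 measured genes. Dnaja3, the mitochondrial Tid1, was the lowest of the DNAJA genes at -0.15 ± 0.20. Dnaja4 differed by 0.31 ± 0.20 and Dnaja2 by -0.01 ± 0.20. Dnajb2, which steers clients to the proteasome, was the highest of the measured DNAJB genes at 0.41 ± 0.21, with probes at 0.34 and 0.48. Dnajb6, a suppressor of polyglutamine aggregation, differed by 0.35 ± 0.20, the endoplasmic reticulum forms Dnajb11 and Dnajb12 by 0.20 ± 0.20 and 0.14 ± 0.20, and Dnajb4 by -0.36 ± 0.21. The spots of Dnajb4 overlapped, at -2.12 and -3.03 in the control and -2.92 and -2.95 in the other sample. Dnajb5 was detected in the Pla2g4c siRNA sample alone, with spots at -4.22 and -4.39 against -6.30 and -6.15. Taken at its own dim control level, it differed by 1.92 ± 0.38, or 3.78-fold higher, which is not a lower bound. Dnajb3, Dnajb7, Dnajb8 and Dnajb13 were not above background on either array.

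The DNAJC class, a varied set that shares the J domain alone, had a median of 0.02 over 19 measured genes of 24. Its extremes were the highest and 1 of the lowest of the 57 measured chaperone genes. Dnajc22, a membrane protein, was read by 10 spots that ran from 2.23 to 2.46 with a mean of 2.38 in the control and from 3.11 to 3.37 with a mean of 3.26 with the Pla2g4c siRNA. The arrays did not overlap, and the difference of 0.88 ± 0.20, or 1.84-fold, was the highest of the 57 genes. It passed 2-fold in the authors' deposited table (1.01), under cyclic loess (1.05) and after spike-in scaling (1.43). Dnajc2 (MPP11 or zuotin), which recruits HSP70 to the ribosome, read 3.32 in the control and 2.66 in the other sample and differed by -0.66 ± 0.20, or 1.58-fold lower. It was below 0 under all 10 alternatives. Dnajc28 differed by 0.62 ± 0.26, and was 0.01 under normexp.

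Of the 19 measured DNAJC genes, these 3 (15.8%, against 57.1% of all named genes) differed by more than the software's error, and the others lay between -0.19 and 0.25. Probes of Dnajc14 (-0.14 to 0.08) and Dnajc17 (-0.09 to 0.08) differed in sign, and the gene values were -0.02 ± 0.21 and 0.02 ± 0.21. They were the exceptions among the 10 genes with several measured probes, of which 8 had all probes on the same side of 0. Dnajc5b and Dnajc18 were well above background in some spots only, and Dnajc5g, Dnajc12 and Dnajc27 in none. Over the 54 measured genes whose measured probes include one with several spots, the spots of both arrays did not overlap in 42 (77.8%), against 75.9% of all such genes.

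The cytosolic chaperonin CCT is a double ring in which each of its subunits has its own gene, and actin and tubulin are its main clients. All 8 measured subunits lay below 0 in the main values, with differences from -0.44 to -0.02 and a median of -0.16, where 51.0% of all named genes were below 0. Cct5 differed by -0.44 ± 0.20, Cct8 by -0.26 ± 0.20 and Cct7 by -0.21 ± 0.20, and these 3 of 8 (37.5%, against 57.1% of all named genes) exceeded the software's error. Cct4 at -0.19, Tcp1 at -0.14, Cct2 and Cct6a at -0.06 and Cct3 at -0.02 lay within it. Cct3 was 0.48 with quantile normalization and 0.34 with cyclic loess, above 0 by more than that error. With quantile normalization 4 of the 8 subunits were below 0, and with cyclic loess 3 were. The spots of Cct5 read 2.98 and 3.02 in the control and both read 2.55 with the Pla2g4c siRNA, without overlap, and Cct8 averaged -1.41 and -1.67. Set against the median of all named genes in the same setting, the CCT median was lower in all 11 settings, with a gap of -0.153 in the main values and of -0.0015 without the filter on dim probes. All 8 subunits lay below that all-gene median in the main values. In the deposited table and with median or spike-in scaling all genes shift alike, so neither the gap nor this count could change. The count was 6 under normexp, 5 with quantile normalization, 5 with cyclic loess and 4 without the filter. The direction against 0 turned with the scaling, and the CCT median was 0.03 with cyclic loess and 0.39 after spike-in scaling. Of the 8 subunits, 3 were among the brightest 903 named genes and 3 among the next 902, and the brightest 903 genes had a median of -0.14. The tissue-restricted Cct6b and Cct8l2 were not above background on either array.

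**Figure D3:**
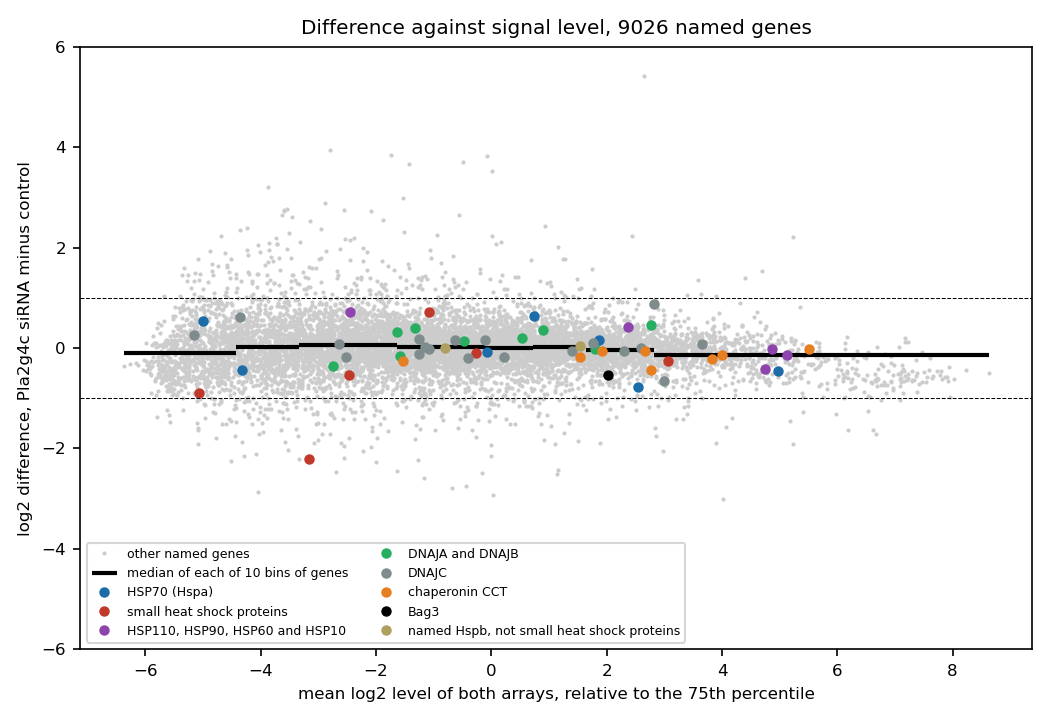
Log2 difference (y axis) against the mean log2 level of both arrays (x axis) for the 9026 measured named genes, with the chaperone genes coloured by family, the median of each of 10 equal bins of genes by level as black bars and 2-fold as dashed lines. The bars fall to -0.14 in the brightest bin, where 10 of the chaperone genes lie.

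Other genes of the pathway were read from lists written from general knowledge. Hsf1, which encodes the factor that induces heat shock genes, differed by 0.13 ± 0.20, Hsf2 by 0.01 ± 0.20, and Hsbp1, a negative regulator of HSF1, by -0.28 ± 0.20. With the coactivator Crebbp (-0.42 ± 0.26) and the elongation factor Eef1a1 (-0.74 ± 0.20), a cofactor of the heat shock response, the 5 measured genes of that list had a median of -0.28. Of these, 0 passed 2-fold, against 5.96% of all named genes. All 26 listed cochaperones of HSP70 and HSP90 were measured, with a median of 0.13. Of them 16 were above 0 and 10 below, where 49.0% of all named genes were above 0. At least 2-fold higher was 1 of them (3.85%), against 2.91% of all named genes. That gene was Fkbp5, an HSP90-binding immunophilin induced by glucocorticoids, at 1.03 ± 0.20, from -1.44 in the control to -0.42 in the other sample. Bag2, an inhibitor of the ubiquitin ligase CHIP, was lowest at -0.68 ± 0.21, followed by Cdc37l1, an HSP90 partner, at -0.63 ± 0.20. The other 23 lay between -0.49, for Stub1, which encodes CHIP, and 0.51, for Stip1 (HOP), which links HSP70 to HSP90. The HSP90 activator Ahsa1 differed by 0.37 ± 0.20 and Chordc1 by 0.42 ± 0.20.

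In the list of mitochondrial chaperones and proteases, which shares 7 genes with the families above, the median was -0.03 over 15 genes. Of them 0 passed 2-fold, against 5.96% of all named genes. Hspa9 was its highest gene, and Hscb, a J-domain protein of iron-sulfur cluster assembly, its lowest at -0.44 ± 0.20. Trap1, the mitochondrial HSP90, differed by 0.44 ± 0.20. Prefoldin delivers actin and tubulin to CCT, and its list also held the tubulin cofactors and the phosducin-like genes Pdcl, Pdcl3 and Txndc9. The median of that list was -0.03 over 13 genes, from Pfdn1 (-0.44 ± 0.20) to Pdcl (0.38 ± 0.20), again with 0 past 2-fold. The tubulins and actins, the clients themselves, had a median of -0.27 over 13 genes, which was -0.047 with quantile normalization and -0.017 with cyclic loess. Of these 13, 3 (23.1%) passed 2-fold, against 5.96% of all named genes. The tubulin Tuba1a was higher by 1.28 ± 0.21, and Tubb2a and Tubb4a differed by -1.06 ± 0.20 and -1.01 ± 0.20. Tubulin genes are close paralogs, so a probe may read more than 1 of them. No list was called apart from the rest of the genes.

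**Figure D4:**
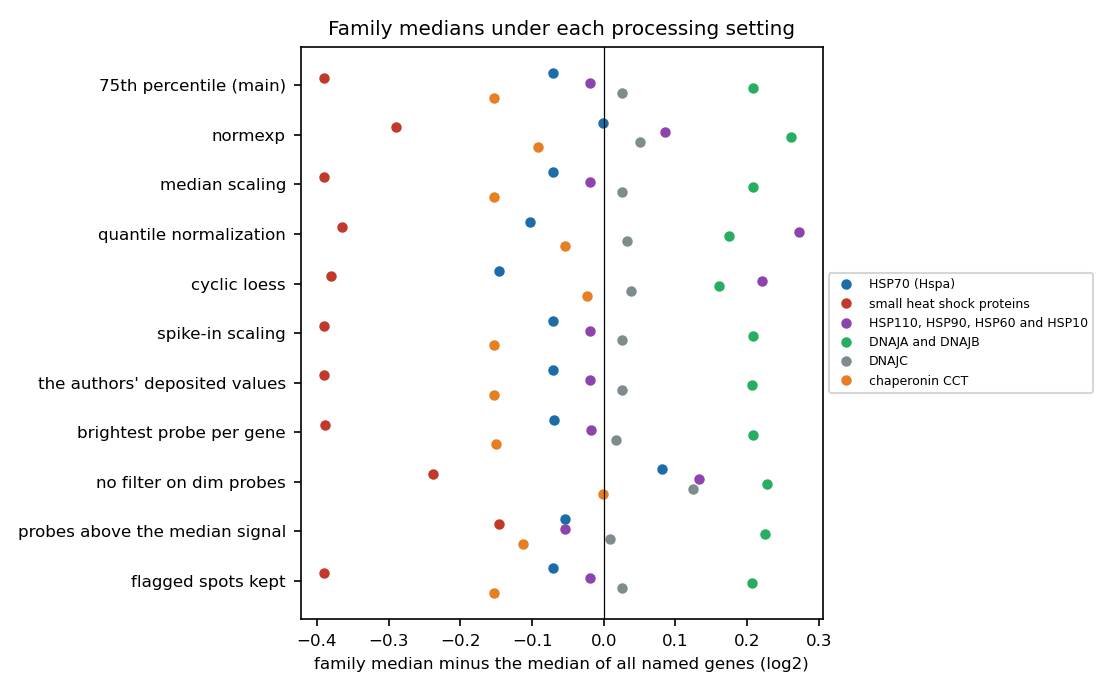
Median difference of each chaperone family minus the median of all named genes in the same setting (x axis, log2), for the main processing and 10 alternatives (rows). The small heat shock proteins and CCT lie left of 0 and both DNAJ groups right of 0 in every row, CCT at -0.0015 without the filter on dim probes, while HSP70 and the HSP110, HSP90, HSP60 and HSP10 group have points on both sides. The rows for median scaling, spike-in scaling and the deposited values shift all genes alike, so they could only repeat the main row apart from rounding.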

How the data were processed

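The deposited scanner files hold spot intensities. Their headers name Agilent Feature Extraction, version 10.10.1.1, and the submitters' processing notes give 10.10. The deposited table holds intensities that equal the processed signal times 1.77 (control) and 1.50 (Pla2g4c siRNA), as computed here; no source used here gives the origin of these constants. Outlier spots were dropped from both arrays, spots of a probe and then measured probes of a gene were averaged on the log2 scale, and of the 30366 gene probes left 18006 (59.3%) were named through RefSeq accessions. On the control and Pla2g4c siRNA arrays 61.9% and 63.1% of gene spots passed the background flag and 0 were saturated; having 1 array per group limits the precision.

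Genes given with values are all measured genes outside the DNAJ classes, and DNAJ and pathway genes past 1.5-fold or at a family's or list's extremes. Genes well above background on 1 array only and genes whose probes differed in sign are also given. A few others (Dnaja2, Dnaja4, Dnajb6, Dnajb11, Dnajb12, Hsf2, Hsbp1, Crebbp, Stip1, Stub1, Ahsa1, Chordc1, Trap1) were added after their values were seen. The genes and lists were chosen with earlier results of these data known. Normexp (offset 50) was run on median spot signals, where mean signals had been planned. Software was limma 3.58.1 (R 4.3.3), pandas 2.3.3 and numpy 2.4.6 (Python 3.11.15), and the averaging steps were tested on simulated data.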

Additional observations from a re-analysis of the deposited data

How the results depend on the processing

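With 1 array per group, a value was compared with the software's error, and a count moved where it changed by more than 1.5 times. No paired analysis was possible because each group has 1 array and the labels carry no replicate numbers. Spike-in scaling, which moved the median of all named genes to 0.54, moved every median: 0.52 over the chaperone genes, 0.47 for HSP70, 0.15 for the small heat shock proteins, 0.52 for HSP110, HSP90, HSP60 and HSP10, 0.75 for DNAJA and DNAJB, 0.56 for DNAJC, 0.39 for CCT, 0.27 for HSF and regulators, 0.68 for cochaperones, 0.52 for prefoldin and tubulin cofactors, 0.52 for mitochondrial chaperones and 0.28 for tubulins and actins. The HSP110, HSP90, HSP60 and HSP10 median moved to 0.32 with quantile normalization and 0.28 with cyclic loess, and that of tubulins and actins to -0.047 and -0.017. With probes above the median signal alone, which leaves out Cryab, the small heat shock protein median was -0.17 and 0 genes were 2-fold lower. The count at least 2-fold higher, 0 in the main values, was 1 under cyclic loess and in the deposited values, 7 after spike-in scaling and 2 without the filter on dim probes, where 4 were 2-fold lower. At 1.5-fold the counts were 5 and 4. All other medians stayed within the software's error, and no gene past 2-fold changed sign. Spike-in scaling and the deposited values move all genes by a common shift; of the other settings, the sign of the 57 genes differed from the main value for 12 under cyclic loess, 10 under quantile normalization, 9 under normexp, 2 with the brightest probe and, of 41 genes, 1 with probes above the median signal. Without the filter on dim probes 539 of all named genes were at least 2-fold higher and 765 lower, under normexp 116 and 154, and after spike-in scaling 1186 and 68, against 263 and 275. The alternative without Cryab was chosen after seeing the data.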
